A study of Mus musculus with 16 samples.

Results

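The 38 genes described here act in the DNA damage, replication and spindle checkpoints, the surveillance systems that hold the cell cycle while DNA is broken or unreplicated or chromosomes are unattached to the spindle. They were listed by name, for the checkpoint role under which Foxn3 was first described (its older name is checkpoint suppressor), with earlier results of these data known, out of the 21887 protein-coding genes of the autosomes and sex chromosomes. All 38 were found in the gene table. A gene was called bound in a peak list where the midpoint of a peak lay within 1 kb of either end of its RefSeq body.

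The peaks came from CUT&RUN, in which an antibody directs micrococcal nuclease to a protein on chromatin so that the DNA beside it is released and sequenced. The tissue was retina taken at embryonic day 16 from CD-1 mice, an outbred stock. Retinas were pooled before dissociation, and each of 16 assays received about 300000 cells. The animals carried no stated mutation and received no stated treatment. Libraries numbered 4 for anti-Foxn3 (from 2 experiments), 2 for anti-Rfx3 and 2 for anti-Foxn4, with 4 and 2 rabbit IgG controls for Foxn3 and Rfx3 and 2 mouse IgG controls for Foxn4. Nuclease digestion took 1 h, but about 12 h for the anti-Foxn4 and mouse IgG libraries, so antibody and digestion time cannot be told apart for Foxn4. The deposited lists, 1 per antibody, held 2794 Foxn3, 2956 Foxn4 and 3981 Rfx3 peaks, and which libraries entered each list is not stated. No value below has a spread between replicates, the read depth is unknown, IgG signal was not analysed here, and peak lists do not let the tissue be checked against marker genes.

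Foxn3 and Foxn4 are forkhead transcription factors, and Rfx3 is an RFX factor that binds X-box sequences and is known for switching on genes of the cilium. In the DNA damage response, the kinases Atr and Atm are activated by single-stranded DNA and by double-strand breaks and phosphorylate the effector kinases Chek1 and Chek2. These restrain the Cdc25 phosphatases, so that cyclin-dependent kinases stay off, and stabilise p53. The embryonic retina still holds dividing progenitor cells, in which these pathways guard replication.

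Of the 38 genes, Foxn3 bound 8 (21.1%, 95% Wilson interval 11.1% to 36.3%), beside 8.8% of the other 21849 protein-coding genes. Rfx3 bound 8 (21.1%, 11.1% to 36.3%), beside 10.6% of the others, and Foxn4 bound 5 (13.2%, 5.75% to 27.3%), beside 4.82%. At the background shares, 3.34, 4.04 and 1.83 of 38 genes would be bound. The intervals cover counting error only, since genes are not replicates, neighbours can share a peak and the genes were not listed independently of these data. They lay above the background share in each list, but for Rfx3 and Foxn4 by a margin of under 1 percentage point. In total 11 genes (28.9%, 17.0% to 44.8%) were bound in at least 1 list, beside 12.8% of the others. The genes bound in every list were Chek2, Brca1, Mdc1 and Mad2l1 (10.5%, 4.17% to 24.1%), beside 3.04%. Trp53 and Rpa2 were bound by Foxn3 and Rfx3, Rad9a and Rpa3 by Foxn3 alone, Fanci and Bub1 by Rfx3 alone and Bard1 by Foxn4 alone.

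Checkpoint genes differed from the average gene in their promoters. A promoter was called CpG-rich where its 300-base window, of 250 bases before and 50 after an annotated start, had a GC content of at least 50% and an observed to expected CpG ratio of at least 0.6. Of the 38 genes, 28 (73.7%) had such a promoter, against 38.6% of the other genes. Among genes bound in any list, it was found at 9 of the 11 checkpoint genes and 1880 of the 2797 others. Genes without a promoter entry (7 of the 38 and 20.1% of the others) could not be classified and were counted as not CpG-rich. Among the 28, Foxn3 bound 6 (21.4%, 10.2% to 39.5%), and of the other genes with a CpG-rich promoter it bound 15.8%. Rfx3 bound 7 (25%, 12.7% to 43.4%), beside 18.5%, and Foxn4 bound 5 (17.9%, 7.88% to 35.6%), beside 9.12%. The share in any list was 32.1% (17.9% to 50.7%), beside 22.3%, and in every list 14.3% (5.7% to 31.5%), beside 6.03%. Against genes of this promoter class, each of the factors' background shares therefore fell inside the interval of the checkpoint genes. This comparison was chosen after the counts over all genes had been seen.

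**Figure D1:**
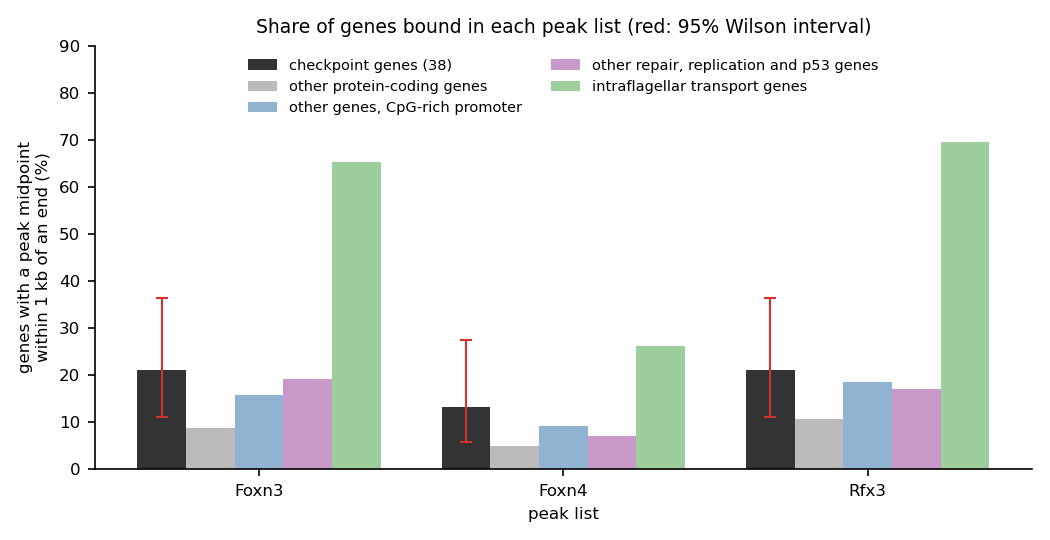
Share of genes with a peak midpoint within 1 kb of an end (vertical axis, percent) in the Foxn3, Foxn4 and Rfx3 peak lists, for the 38 checkpoint genes, 4 comparison sets and, as red bars, the 95% Wilson interval of the checkpoint genes. The checkpoint genes stood at 21.1%, 13.2% and 21.1%, and intraflagellar transport genes at 65.2%, 26.1% and 69.6%.

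The promoters of 8 genes are shown because together they hold each combination of factors seen at a start: the 4 genes bound in every list, 1 gene for each factor alone and Trp53bp1, whose start the end rule missed. Each line gives the 250 bases before the start, from RefSeq (GRCm38.p6), and a promoter entry existed for 31 of the 38 genes. Capitals mark matches, on either strand, to any of 7 motifs: GACGC (a forkhead-like sequence known from Foxn factors), GTAAACA (the common forkhead sequence), GTTGCC and the longer palindrome-like X-box pattern (the core and the fuller form of the RFX site), TTTGAA (the core of the cell cycle homology region), GCGGGAA (E2F) and CCAAT. Matches to GTTGCC can lie inside a match to the longer X-box form.
Chek2 (chr5:110839733-110839982, plus strand): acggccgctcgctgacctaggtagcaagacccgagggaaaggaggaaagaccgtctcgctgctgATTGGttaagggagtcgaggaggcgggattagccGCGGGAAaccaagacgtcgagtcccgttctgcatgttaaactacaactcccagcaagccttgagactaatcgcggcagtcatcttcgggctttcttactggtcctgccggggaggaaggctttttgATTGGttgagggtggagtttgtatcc
Brca1 (chr11:101551956-101552205, minus strand): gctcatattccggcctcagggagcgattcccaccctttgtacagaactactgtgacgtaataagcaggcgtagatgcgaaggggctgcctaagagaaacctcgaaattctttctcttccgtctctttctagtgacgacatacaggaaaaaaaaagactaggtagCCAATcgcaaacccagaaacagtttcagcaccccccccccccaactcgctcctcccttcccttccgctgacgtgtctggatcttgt
Mdc1 (chr17:35841248-35841497, plus strand): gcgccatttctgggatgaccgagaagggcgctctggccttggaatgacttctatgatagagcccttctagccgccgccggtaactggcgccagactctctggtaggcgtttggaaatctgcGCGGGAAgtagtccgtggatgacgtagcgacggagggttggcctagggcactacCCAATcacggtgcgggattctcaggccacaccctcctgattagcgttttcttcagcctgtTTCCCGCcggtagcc
Mad2l1 (chr6:66534971-66535220, plus strand): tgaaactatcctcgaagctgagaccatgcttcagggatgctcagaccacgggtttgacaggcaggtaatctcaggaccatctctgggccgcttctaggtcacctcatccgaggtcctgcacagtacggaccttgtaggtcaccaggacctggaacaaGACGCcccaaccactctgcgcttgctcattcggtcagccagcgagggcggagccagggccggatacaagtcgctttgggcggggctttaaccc
Trp53bp1 (chr2:121271408-121271657, minus strand): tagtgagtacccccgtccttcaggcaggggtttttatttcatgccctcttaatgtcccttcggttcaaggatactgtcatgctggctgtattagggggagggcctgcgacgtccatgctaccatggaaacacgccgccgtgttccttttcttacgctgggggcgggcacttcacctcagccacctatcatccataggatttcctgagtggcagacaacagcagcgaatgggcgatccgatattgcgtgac
Rpa3 (chr6:8259142-8259391, minus strand): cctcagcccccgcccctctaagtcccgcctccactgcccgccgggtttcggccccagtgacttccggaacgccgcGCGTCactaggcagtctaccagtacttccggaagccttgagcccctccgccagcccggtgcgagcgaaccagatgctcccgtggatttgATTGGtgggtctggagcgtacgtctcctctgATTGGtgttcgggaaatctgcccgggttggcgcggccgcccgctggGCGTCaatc
Bard1 (chr1:71102973-71103222, minus strand): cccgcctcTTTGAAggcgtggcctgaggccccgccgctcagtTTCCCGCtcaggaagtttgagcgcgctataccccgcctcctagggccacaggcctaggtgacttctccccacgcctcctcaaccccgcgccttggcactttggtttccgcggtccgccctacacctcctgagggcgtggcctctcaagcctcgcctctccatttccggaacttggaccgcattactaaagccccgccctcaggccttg
Fanci (chr7:79392088-79392337, plus strand): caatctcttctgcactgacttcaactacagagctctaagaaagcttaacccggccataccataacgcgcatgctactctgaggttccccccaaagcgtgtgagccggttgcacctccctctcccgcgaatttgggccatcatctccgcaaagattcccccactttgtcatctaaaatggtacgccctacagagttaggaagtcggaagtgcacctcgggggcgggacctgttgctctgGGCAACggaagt

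The longer X-box form was found in none of the 33 promoters of the checkpoint genes. It was present in 1.84% of all 21263 promoters and in 10.6% of those that met an Rfx3 peak. The shares with a Foxn3 and a Foxn4 peak were 9.59% and 3.1%. GTTGCC was present in 10.5% of all promoters and 22.7% of those with an Rfx3 peak, and in 1 of the 8 checkpoint promoters with an Rfx3 peak, that of Fanci. With 1 of the 8 fixed letters allowed to differ, a search chosen after the promoters had been seen, the longer form was found in 15.6% of all promoters, 28.8% of those with an Rfx3 peak and 3 of the 8 checkpoint promoters with an Rfx3 peak (Fanci, Mdc1 and Trp53bp1). GACGC was present in 27.7% of all promoters, 48.3% of CpG-rich ones and 49.7% of those with a Foxn3 peak. The shares with a Foxn4 and an Rfx3 peak were 49.0% and 47.7%. The 33 checkpoint promoters belong to 31 genes, since Rad1 and Cdkn1a have 2 entries each, and those of Rad1 overlap. Counting entries separately, GACGC was in 16 of the 33, but in 2 of the 7 that met a Foxn3 peak (Mad2l1 and Rpa3). GTAAACA was in none of those 7, beside 2.62% of all promoters. GCGGGAA was in 5 of the 33 checkpoint promoters (15.2%), and in 3 of the 7 with a Foxn3 peak (Chek2, Mdc1 and Rpa2). This stood beside 4.96% of all promoters, 8.84% of CpG-rich ones and 8.45% of those with a Foxn3 peak. GCGGGAA was likewise in 3 of the 5 checkpoint promoters with a Foxn4 peak and 3 of the 8 with an Rfx3 peak. CCAAT was in 17 of the 33 (51.5%) and in 5 of the 7 with a Foxn3 peak, beside 35.4% of all and 58.9% of those with a Foxn3 peak. TTTGAA was in 2 checkpoint promoters, beside 14.5% of all and 7.55% of CpG-rich ones. These are matches of letters in a 250-base window and show neither that a site is used nor that it is not.

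The upstream kinases had no peak close by in any list. Atr, the kinase of stalled replication forks, lay 243009 bp or more from any peak, measured from its nearer end. For Atm, the kinase of double-strand breaks, the nearest peak was an Rfx3 peak at 31834 bp, and for Atrip, which tethers Atr to single-stranded DNA, an Rfx3 peak at 21094 bp. The effector kinases differed from each other. Chek1 (chromosome 9, 36708482 to 36726658) had its nearest peak, for Foxn4, at 41111 bp, with peaks of the other lists beside it at 41116 bp (Foxn3) and 41150 bp (Rfx3). Chek2 (chromosome 5, 110839800 to 110874140) was bound in every list.

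At Chek2 the peaks overlapped, with Foxn3 over 110839668 to 110840056, Foxn4 over 110839752 to 110840034 and Rfx3 over 110839678 to 110840207. Their midpoints lay 121, 90 and 40 bp upstream of the annotated start. In their own lists these were low-ranking peaks: 35.8% of Foxn3 peaks, 29.3% of Foxn4 peaks and 4.5% of Rfx3 peaks scored lower. An end of Hscb, a mitochondrial co-chaperone gene, lay 69 bp from the Foxn3 midpoint, against 62 bp for Chek2, so the peaks cannot be given to either gene alone.

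Among the proteins that load onto damaged DNA, the checkpoint clamp (Rad9a, Rad1 and Hus1), its loader Rad17 and the Atr activator Topbp1 gave 1 bound gene of 5. Rad9a (chromosome 19, 4195196 to 4201672) carried a peak for Foxn3 at 4201435 to 4201870, 19 bp from its end and higher than 78.8% of the list, with no other protein-coding gene end within 1 kb. The nearest Rfx3 and Foxn4 peaks lay 25520 bp and 282309 bp away. Its strand was not in the promoter table, so whether this end is the start was not determined. The nearest peaks of Rad1, Hus1, Rad17 and Topbp1 lay 19873 bp, 37280 bp, 124850 bp and 111841 bp away. The fork mediators Clspn, Timeless and Tipin, which relay the signal from Atr to Chek1, were unbound, with their nearest peaks 158930 bp, 116045 bp and 231284 bp away.

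Replication protein A coats single-stranded DNA and is the first signal seen by Atr. Of its subunits, the large subunit gene Rpa1 was unbound, with a nearest peak at 20780 bp. Rpa2 (chromosome 4, 132768360 to 132778746) was bound by Foxn3 (132767965 to 132768508) and by Rfx3 (132767997 to 132768359), with midpoints 123 and 182 bp upstream of its start. They scored above 31% and 5.6% of their lists. Rpa3 (chromosome 6, 8255936 to 8259141) had a Foxn3 peak alone, at 8259133 to 8259408, above 35.8% of the list. That midpoint lay 129 bp from Rpa3 and 17 bp from Umad1, so under assignment to the nearest gene the peak leaves Rpa3.

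**Figure D2:**
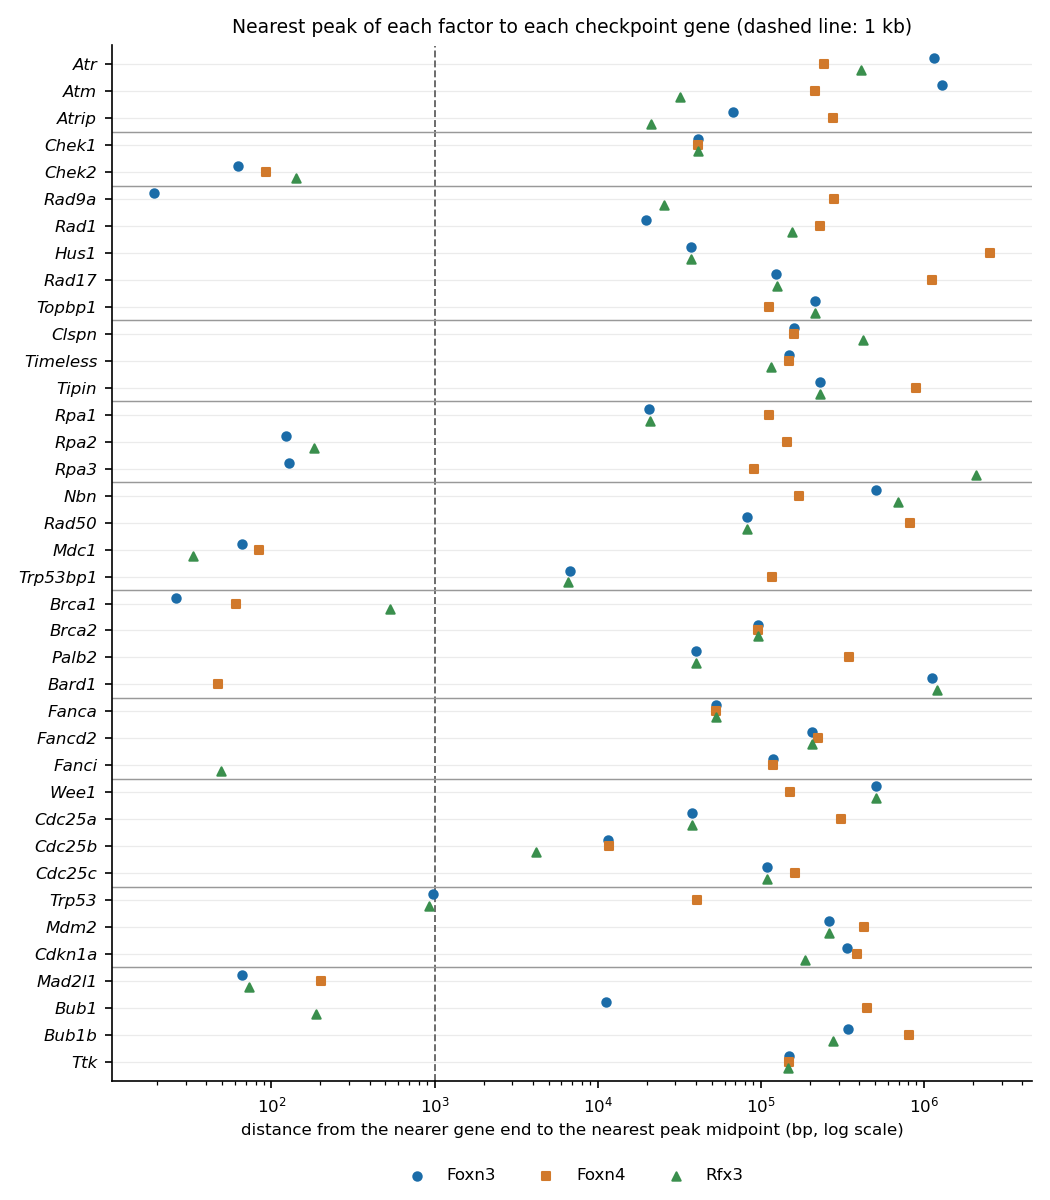
Distance in bp, on a log axis, from the nearer end of each of the 38 checkpoint genes (rows, grouped by role between grey lines) to the nearest peak midpoint in the Foxn3 (circles), Foxn4 (squares) and Rfx3 (triangles) lists. The dashed line marks 1 kb, with 11 genes having at least 1 symbol to its left and Trp53 just inside it at 983 bp and 919 bp.

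Break sensing and the chromatin scaffolds gave 1 gene bound at an end and a second with peaks inside its body. Nbn and Rad50, subunits of the complex that detects broken ends, lay 171355 bp and 82141 bp from the nearest peak. Mdc1 (chromosome 17, 35841495 to 35859670), which docks on phosphorylated histone beside breaks, had Foxn3, Foxn4 and Rfx3 peaks at 35841147 to 35841711, 35841177 to 35841645 and 35841177 to 35841747. Their midpoints lay 69, 87 and 36 bp upstream of the start, and no other gene end was within 1 kb. The Foxn3 and Rfx3 peaks were weak in their lists (above 10.8% and 24.5%), while the Foxn4 peak was above 75.5%. A further trio of peaks lay 3138 to 3191 bp from Mdc1, beside the tubulin gene Tubb5.

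Trp53bp1, the scaffold that steers breaks toward end joining, was unbound by the end rule but had 2 Foxn3 and 3 Rfx3 peaks inside its body (chromosome 2, 121194835 to 121296354). Its annotated promoter lies inside that body, at a start 25 kb from the body's end. There the Foxn3 peak, at 121271042 to 121271652, was centred 60 bp downstream of the start and ranked above 94.7% of its list. The Rfx3 peak, at 121271254 to 121272496, was centred 468 bp upstream and ranked above 98.4%. A second pair, at 121289475 to 121289748 (Foxn3) and 121289476 to 121290064 (Rfx3), lay at an end of Map1a, a microtubule-associated protein gene. Foxn4 had no peak nearer than 117460 bp of either end. Counting peaks within 1 kb of an annotated start, in place of either end, gave 8 of 31 genes for Foxn3 (25.8%, 13.7% to 43.2%, beside 9.64% of other genes). It gave 5 for Foxn4 (16.1%, 7.09% to 32.6%, beside 5.27%) and 9 for Rfx3 (29.0%, 16.1% to 46.6%, beside 11.5%). Of the 31 genes, 28 had a CpG-rich promoter, and the other genes here were not matched for promoter class.

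The BRCA proteins carry out repair by recombination and hold the checkpoint until it is done. Brca1 (chromosome 11, 101488761 to 101551955) had the highest-ranking peaks of the bound genes in all 3 lists. A Foxn3 peak at 101551797 to 101552165 lay at its start (above 97.4% of the list) and another at 101552552 to 101552962, 802 bp upstream (above 86.9%). Foxn4 peaks fell at both places, at 101551893 to 101552140 (above 44.1%) and 101552557 to 101552975 (above 91.5%). The Rfx3 list had 1 broad peak of 1328 bp over both, at 101551825 to 101553152 (above 98.0%). The neighbouring gene Nbr1, an autophagy receptor, has an end between the midpoints of the peaks at these places. That end lies inside the Foxn3 and Foxn4 peaks at the Brca1 start and inside the Rfx3 peak. Nbr1 was farther than Brca1 from the midpoints of the peaks at the Brca1 start (126 bp against 26 bp for Foxn3, 90 bp against 61 bp for Foxn4). It was nearer than Brca1 to the upstream peaks (650 bp against 802 bp for Foxn3, 659 bp against 811 bp for Foxn4) and to the Rfx3 midpoint (381 bp against 533 bp). The highest-ranking Foxn4 and Rfx3 peaks at Brca1 were thus nearer to Nbr1. Bard1, the partner that Brca1 needs for its ligase activity (chromosome 1, 71027535 to 71103141), had a Foxn4 peak alone, at 71102948 to 71103239, above 15.4% of the list. The nearest Foxn3 and Rfx3 peaks to Bard1 were 1123631 bp and 1200821 bp away. Brca2 and Palb2, which act in the same repair route, had no peak nearer than 95630 bp and 40056 bp.

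Of the Fanconi anaemia genes, which act on crosslinked DNA, Fanci (chromosome 7, 79392312 to 79450266) had an Rfx3 peak at 79391963 to 79392760, above 94.6% of the list and with an end of Rlbp1, a gene of the retinal visual cycle, 111 bp from its midpoint. Its partner Fancd2 and the core gene Fanca had no peak nearer than 204806 bp and 53377 bp.

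**Figure D3:**
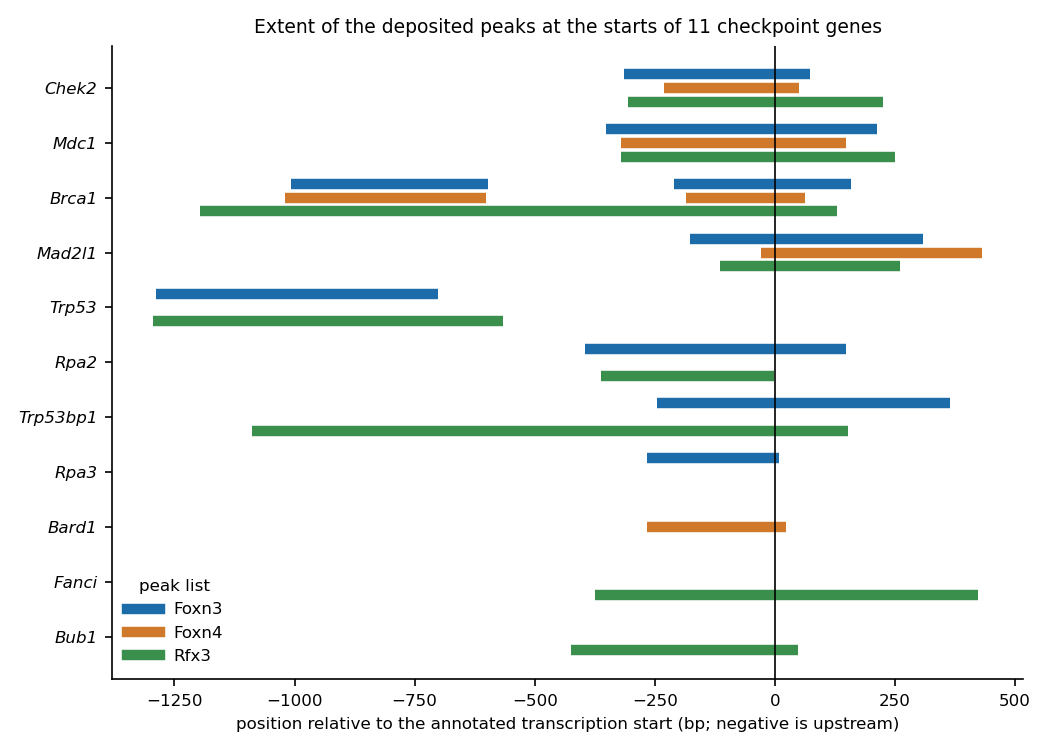
Extent of the deposited Foxn3, Foxn4 and Rfx3 peaks (coloured bars) relative to the annotated transcription start of 11 checkpoint genes, in bp, with negative values upstream. Bars of different lists overlap at Chek2, Mdc1, Brca1, Mad2l1, Trp53, Rpa2 and Trp53bp1, and at Trp53 every bar lies wholly upstream of the 250-base promoter window, as do the outer bars at Brca1.

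The 4 genes of the cell cycle switch were unbound in every list, as were 87.2% of the genes outside the 38. Wee1, the kinase that holds cyclin-dependent kinases off, and the opposing phosphatases Cdc25a and Cdc25c had no peak nearer than 150643 bp, 37641 bp and 108488 bp. The only peak within 5 kb of an end of a switch gene lay inside Cdc25b (chromosome 2, 131186436 to 131198511). This Rfx3 peak, at 131190349 to 131190954, was 4215 bp from an end and above 37.7% of the list. It was the nearest to the 1 kb limit from outside, as Trp53 was from inside. The nearest Foxn3 and Foxn4 peaks to Cdc25b lay 11527 bp and 11733 bp away.

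Trp53 encodes p53, which halts or kills damaged cells. Trp53 (chromosome 11, 69580348 to 69591873) carried peaks for Foxn3 (69579071 to 69579658) and Rfx3 (69579065 to 69579792), with midpoints 994 and 930 bp upstream of its start and above 80.5% and 55.1% of their lists. Both midpoints lay closer to an end of the neighbouring gene Wrap53 (885 bp and 821 bp) than to the Trp53 start. The p53 inhibitor gene Mdm2 and the p53 target Cdkn1a, an inhibitor of cyclin-dependent kinases, had no peak nearer than 262795 bp and 185687 bp.

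The spindle checkpoint delays chromosome separation until every kinetochore is attached. Mad2l1 (chromosome 6, 66535221 to 66541107), its diffusible inhibitor, was bound in every list, with Foxn3, Foxn4 and Rfx3 peaks at 66535044 to 66535530, 66535192 to 66535652 and 66535106 to 66535482. Their midpoints lay 66, 201 and 73 bp downstream of the start, and no other gene end was within 1 kb. The Foxn3 peak was above 8.4% of its list, the lowest Foxn3 rank among the checkpoint genes, and the Foxn4 peak above 81.1%. The kinase gene Bub1 (chromosome 2, 127800197 to 127831859) had an Rfx3 peak alone, at 127831811 to 127832284, 188 bp upstream of its start and above 89.8% of the list, and the nearest Foxn3 peak was 11317 bp away. Bub1b and Ttk, which act beside it at the kinetochore, had no peak nearer than 277663 bp and 147902 bp.

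All 10 bound genes with a promoter entry were bound at the start side of the gene and none at the other end, and 93.5% of the 2344 other bound genes with an entry were likewise bound at the start side alone. Within 1 kb of an end of a checkpoint gene there were 9 Foxn3, 6 Foxn4 and 8 Rfx3 peaks. The Foxn3 peaks lay at 8 genes and the Foxn4 peaks at 5, because Brca1 held more than 1 peak of each. The peaks at Brca1 lay within 1 kb of the same Nbr1 end and met the same Rfx3 peak, so this place enters the counts repeatedly. Among the 9 Foxn3 peaks, Rfx3 peaks overlapped 7 and Foxn4 peaks overlapped 5, against 85.3% and 37.3% of the 1577 such peaks at other genes. Of the 6 Foxn4 peaks, 5 overlapped a Foxn3 peak and 5 an Rfx3 peak (67.5% and 72.5% of those at other genes). Of the 8 Rfx3 peaks, 6 overlapped Foxn3 and 4 overlapped Foxn4 (68.7% and 32.5%). Another protein-coding gene had an end within 1 kb of 5 of the 9 Foxn3, 3 of the 6 Foxn4 and 4 of the 8 Rfx3 peaks, where peaks at other genes lay at 2 or more gene ends in 24.6%, 23.8% and 22% of cases, counted without the checkpoint genes.

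The median rank of the Foxn3 peaks, as the percentage of the list scoring lower, was 35.8 (8.4 to 97.4), beside 52.8 for Foxn3 peaks at other genes. For Foxn4 it was 59.8 (15.4 to 91.5), beside 44.1, and for Rfx3 48.0 (4.5 to 98.0), beside 46.4. Foxn4 peaks often tied in score, and a peak at the median score of that list (7.11) itself ranked above 44.1%. With only the peaks at or above the median score of their list, Foxn3 bound Rad9a, Brca1 and Trp53 (7.89%, 2.72% to 20.8%), beside 4.87% of other genes. Rfx3 then bound Brca1, Trp53, Fanci and Bub1 (10.5%, 4.17% to 24.1%), beside 5.18%, and Foxn4 bound Brca1, Mdc1 and Mad2l1 (7.89%, 2.72% to 20.8%), beside 2.84%. Of Chek2, Brca1, Mdc1 and Mad2l1, only Brca1 kept a peak in each list. The intervals of all 3 factors then held the background share. Counted over lists, 7 genes had such a peak in any list (18.4%, 9.22% to 33.4%), beside 7.9%, and 1 in every list (2.63%), beside 0.806%.

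**Figure D4:**
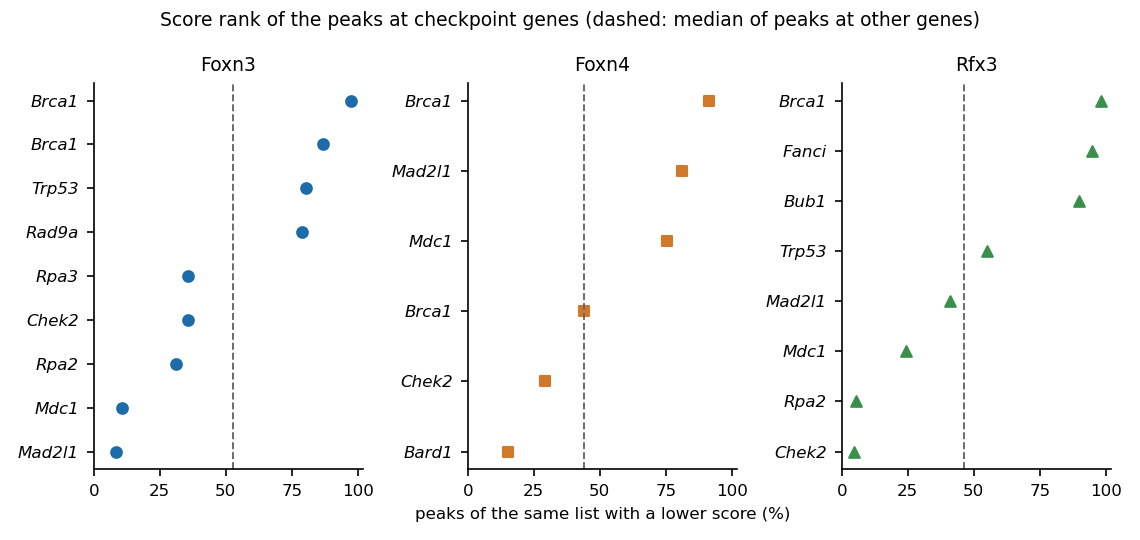
Score rank of each peak within 1 kb of a checkpoint gene end, as the percentage of peaks in the same list that score lower (horizontal axis), for Foxn3, Foxn4 and Rfx3, with the gene on the vertical axis. Dashed lines mark the median of peaks at other genes (52.8, 44.1 and 46.4), and the points span 8.4 to 97.4, 15.4 to 91.5 and 4.5 to 98.0.

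Which genes were called, and whether an interval held its background share, depended on where the limit was drawn. The counts of bound genes stayed within 1.5 times those of the 1 kb rule. Within 500 bp of an end, Foxn3 bound 7 genes (18.4%, 9.22% to 33.4%, beside 8.04%), Foxn4 5 (beside 4.33%) and Rfx3 6 (15.8%, 7.44% to 30.4%, beside 9.41%), without Trp53 and without Rfx3 at Brca1. Within 5 kb, Foxn3 bound 8 (beside 11.6%), Foxn4 5 (beside 6.64%) and Rfx3 9, Cdc25b added (23.7%, 13% to 39.2%, beside 14.1%), and each interval held its background share. Counting any base of a peak left the bound genes as they were, beside 9.0% for Foxn3, 4.93% for Foxn4 and 11% for Rfx3. With the whole gene body, Trp53bp1 and Cdc25b joined, for 9 genes with Foxn3 (23.7%, 13% to 39.2%, beside 11.4%), 5 with Foxn4 (beside 7.91%, inside its interval) and 10 with Rfx3 (26.3%, 15% to 42%, beside 14.5%). With each peak given to its nearest gene, Foxn3 bound 6 (15.8%, 7.44% to 30.4%, beside 7.14%), Foxn4 5 (beside 3.92%) and Rfx3 6 (beside 8.79%, inside its interval). Against named genes alone, without unnamed gene models and chemoreceptor families, the background was 10.1% for Foxn3, 5.55% for Foxn4 and 12.2% for Rfx3, the last inside the interval of the checkpoint genes.

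Distances were compared without a limit. The median distance from a checkpoint gene end to the nearest peak of any list was 38848 bp, beside 88652 bp for other genes on a chromosome with a peak. It was 75091 bp for Foxn3 (193050 bp for other genes), 67759 bp for Rfx3 (138988 bp) and 154792 bp for Foxn4 (258287 bp). Of the 27 unbound genes, 17 had no peak of any list within 50 kb and 14 had none within 100 kb. Most other genes also had none within 50 kb, since their median was 88652 bp. Their exact shares at these limits were not counted.

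Related genes were counted in 8 further lists. Together their 141 genes gave 27 bound by Foxn3 (19.1%), 24 by Rfx3 (17.0%) and 10 by Foxn4 (7.09%), with 5 bound in every list (3.55%). The shares of all genes outside the 38 were 8.8%, 10.6%, 4.82% and 3.04%. Those of other genes with a CpG-rich promoter were 15.8%, 18.5%, 9.12% and 6.03%. In any list the share of the 141 was 25.5%, beside 12.8% of all genes outside the 38 and 22.3% of the CpG-rich ones. Against the CpG-rich genes, only the Foxn3 and any-list shares of the 141 were higher. The 141 were not split by promoter class, so that comparison is not matched as it was for the 38. Of 35 genes of the replication origin and fork, which unwind and copy DNA, Foxn3 bound 12 (34.3%), Rfx3 9 (25.7%) and Foxn4 2. Of 15 homologous recombination genes the counts for Foxn3, Rfx3 and Foxn4 were 4, 2 and 2, of 13 further Fanconi genes 1, 2 and 2, and of 10 end joining genes 2, 3 and 1. Of 21 spindle and kinetochore genes they were 3, 2 and 3, of 12 G2/M kinases and cyclins 1, 3 and 0, of 18 p53 target genes 3, 2 and 0, and of 17 damage signalling partners 1, 1 and 0. Of the 141, Usp1, Mus81, Xrcc3, Kntc1 and Gins2 were bound in every list. Usp1 removes ubiquitin from the Fanconi proteins, Mus81 is a nuclease for joined DNA molecules, and Xrcc3 acts in recombination repair. Kntc1 is a kinetochore protein and Gins2 a subunit of the replicative helicase. The peaks at Kntc1 and Xrcc3 also lay within 1 kb of an end of Rsrc2 and Zfyve21. At Mus81 the midpoints lay 707 to 793 bp from the gene end. The peaks at these genes ranked from above 0.7% of the list (Foxn4 at Gins2) to above 96.1% (Rfx3 at Mus81). For scale, of 23 intraflagellar transport genes, which build the cilium, Foxn3 bound 15 (65.2%), Rfx3 16 (69.6%) and Foxn4 6 (26.1%), and 4 of them were bound in every list (Ift122, Ift140, Ift27 and Wdr19).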

How the data were processed

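Peak coordinates are on mm10, per the file headers. The submitters' processing notes name cutadapt, Bowtie2, UMI-tools, bedtools and SEACR, with no version, role or setting. The score of each peak is the authors' own deposited value, and its scaling is not given in the sources used here, so scores were compared inside 1 list and never between lists. Starts were made 1-based. Genes came from a RefSeq table of GRCm38.p6 (the same assembly), and starts, strands and promoter sequences from a RefSeq promoter table that gave an entry for 17492 protein-coding genes. Counting, intervals and motif searches used Python 3.11.15, pandas 2.3.3 and scipy 1.17.1. The binding rule was tested on simulated data. No enrichment test was run, and samples have 1 list per antibody, so no replicate test was possible. The related gene lists, like the 38 genes, were chosen with earlier results of these data known. Named are all bound genes, then those with a peak in the body or up to 5 kb away, the rest by role, and of the other lists the genes bound in every list. Trp53bp1 was examined at its start, and CpG-rich promoters and the 1-letter motif search were added, after seeing the data. Reported distances drop fractions of a base.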

Additional observations from a re-analysis of the deposited data

How the results depend on the processing

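Limits of 500 bp and 5 kb, any base of a peak, starts only, gene bodies and nearest-gene assignment each left the counts of bound checkpoint genes within 1.5 times those reported. With peaks at or above the median score the counts were 3 for Foxn3, 3 for Foxn4, 4 for Rfx3, 7 in any list and 1 in every list. The background share was 10.1%, 5.55% and 12.2% for Foxn3, Foxn4 and Rfx3 among named genes, and 15.8%, 9.12% and 18.5% among CpG-rich promoters, an alternative added after seeing the data. Requiring an overlap of 50% of both peaks left 3 Foxn4 peaks that met Rfx3. No paired analysis was possible because each antibody has 1 peak list in which replicates are not separated, and for the same reason no replicate could be left out. Read depth is unknown, so a gene without a peak may hold signal under the authors' threshold.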
